A study of Caenorhabditis elegans with 46 samples.

Results

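The 6 mature arms of the worm microRNA hairpins mir-228, mir-790 and mir-791 were followed across a set of small RNA libraries from Caenorhabditis elegans. They were chosen by name, as both annotated arms of the 3 hairpins: cel-miR-228-5p, cel-miR-228-3p, cel-miR-790-5p, cel-miR-790-3p, cel-miR-791-3p and cel-miR-791-5p. Earlier results of these data were known when the choice was made. They are 6 of 473 worm arms in each count table, and all 6 had counts in all 46 libraries. The study read microRNAs of chosen cell types out of whole worms. RNA of whole L1 larvae (the first larval stage) was sequenced either after sodium periodate, here called oxidised, or untreated, and small RNAs of about the length of microRNAs were cloned.

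The transgenic worms carried Ath-HEN1, a plant microRNA methyltransferase, behind a promoter that sets the cells in which it is made. In a henn-1(0) background, which lacks the worm's own small RNA methyltransferase, the drivers were ASE (named for a pair of taste neurons; the labels give no promoter), rgef-1, unc-31 and rab-3 (neurons at large), elt-2 (intestine), myo-2 (pharyngeal muscle), myo-3 (body wall muscle) and rps-5 (a ribosomal protein gene, active broadly). ASE and myo-3 lines were also made with henn-1 intact, and wild type N2 worms carried no transgene. Each of the 11 genotypes had 2 oxidised and 2 untreated libraries, except rps-5 with 3 of each. Every transgenic library pair came from a named line, with 2 lines per genotype, and line 16.1 gave 2 of the 3 rps-5 pairs. No driver for glia was used, and the enzyme's own cell pattern was not measured here. The labels name lines but not separate cultures, so p-values measure the spread between these lines and libraries.

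MicroRNAs are cut from a hairpin, and 1 arm is usually loaded into the silencing complex while the partner arm decays. HEN1 enzymes put a methyl group on the last nucleotide of a small RNA, which protects it from periodate, whereas an oxidised end cannot be ligated into a library. Worm microRNAs are normally unmethylated, and HENN-1, the worm enzyme, acts on piRNAs and some siRNAs. The 3 microRNAs are commonly placed in 1 family by their shared seed, together with the vertebrate miR-183, miR-96 and miR-182 of sensory organs. The mir-228 promoter is widely used to mark glia, and miR-791 has been described in CO2-sensing neurons. In whole-worm libraries, fewer cells of a type and less RNA per cell cannot be told apart.

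In the WBcel235 annotation all 3 hairpins lie on the plus strand. The mir-228 hairpin is on chromosome IV from 5562025 to 5562122, and mir-790 follows on the same chromosome from 5566422 to 5566491, with 4299 bases and 0 protein-coding genes between them. The mir-791 hairpin is on chromosome X from 5809349 to 5809433. None of the 3 lies in an exon, intron or UTR of another gene, but the piRNA 21ur-1430 (IV, 5566428 to 5566448, plus strand) lies wholly inside the miR-790-5p arm (5566427 to 5566448). Their annotated starts differ, but counts per arm hold no read positions. The piRNA's share of the miR-790-5p counts was therefore not tested.

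Library totals were 425711 to 35253784 counts in the 23 oxidised libraries and 10674772 to 43302426 counts in the 23 untreated ones. The lowest member count was 1, for miR-790-3p in an oxidised myo-2 library. Levels below are CPM, the count scaled to a common library total, and changes are log2 oxidised over untreated from edgeR's quasi-likelihood fit of all 46 libraries with TMM scaling, given ± SE, with Benjamini-Hochberg adjusted p over 395 arms and called below 0.05. TMM factors were 2.57 to 3.75 in the oxidised wild type and henn-1-intact ASE libraries, against 0.699 to 1.63 in the other oxidised libraries. Other scalings moved the median arm of a genotype by -0.29 to 2.39, and a member's fitted change by up to 2.47. Measured against the median arm of the same fit, each of the 66 member changes stayed within 0.25 over 4 scalings. Subtracting the median takes out most of a scaling by construction, and whether the median arm itself changed was not tested. Changes relative to that median are given as well. Of the 46 fits that leave 1 library out, 39 also took an untreated library as the TMM reference, so their values reflect both changes. The lines' drivers were checked on known arms: miR-60-3p, an intestinal microRNA, averaged 70200 CPM in oxidised and 24400 CPM in untreated elt-2 worms. The muscle microRNA miR-1-3p averaged 295000 CPM in oxidised and 26800 CPM in untreated henn-1(0) myo-3 worms. The neuronal miR-124-3p averaged 54100 CPM in oxidised and 8580 CPM in untreated rgef-1 worms. The left ASE neuron's lsy-6-3p averaged 2980 CPM in oxidised and 78.3 CPM in untreated henn-1(0) ASE worms. Arms of other tissues stayed in the neuronal libraries to different degrees. miR-60-3p averaged 8970, 2060, 2250 and 25900 CPM in oxidised ASE henn-1(0), rgef-1, unc-31 and rab-3 worms, against 14300, 21900, 13500 and 31900 CPM untreated. miR-1-3p averaged 20700, 13600, 15300 and 10900 CPM in the same oxidised groups, against 30500, 27600, 22000 and 30100 CPM untreated. Their part in the levels of the 6 arms was not tested. In elt-2 worms miR-1-3p averaged 2600 CPM oxidised and 35900 CPM untreated, and in myo-2 and myo-3 henn-1(0) worms miR-60-3p averaged 2890 and 840 CPM oxidised, against 24200 and 15500 CPM untreated. The broad rps-5 driver did not keep these arms evenly. Oxidised against untreated, miR-1-3p averaged 96600 and 36400 CPM there and miR-124-3p 13200 and 9560 CPM. By contrast, miR-60-3p averaged 12600 and 23400 CPM and lsy-6-3p 30.8 and 102 CPM.

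Before oxidation the family was led by miR-228-5p, which varied little between genotypes, whereas the rarer arms varied more. Over the 23 untreated libraries miR-228-5p ran from 8427 CPM through a median of 11170 to 13646 CPM, and by its mean it was rank 20 of 473 arms. The same figures were 202, 432 and 724 CPM for miR-790-5p (rank 71) and 14.2, 40.0 and 95.8 CPM for miR-791-3p (rank 129). The 3 other arms were lower still, with medians of 26.3 CPM for miR-791-5p, 12.8 CPM for miR-228-3p and 5.13 CPM for miR-790-3p. No member passed the test between untreated genotypes in 3 comparisons. These were rps-5 minus wild type (1 of 395 arms called, 0.253%), ASE henn-1(0) minus henn-1 intact (0.253%) and myo-3 henn-1(0) minus henn-1 intact (0%). With edgeR, 2, 1 and 1 members had an unadjusted p below 0.05 in these comparisons, as had 57, 23 and 29 of the 395 arms. DESeq2 called 0, 0 and 0 members, and 23, 1 and 1 of all arms. The largest untreated difference was in miR-228-3p, 1.73 ± 0.54 higher in ASE henn-1(0) than in henn-1-intact ASE worms (edgeR adjusted p = 0.359).

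**Figure D1:**
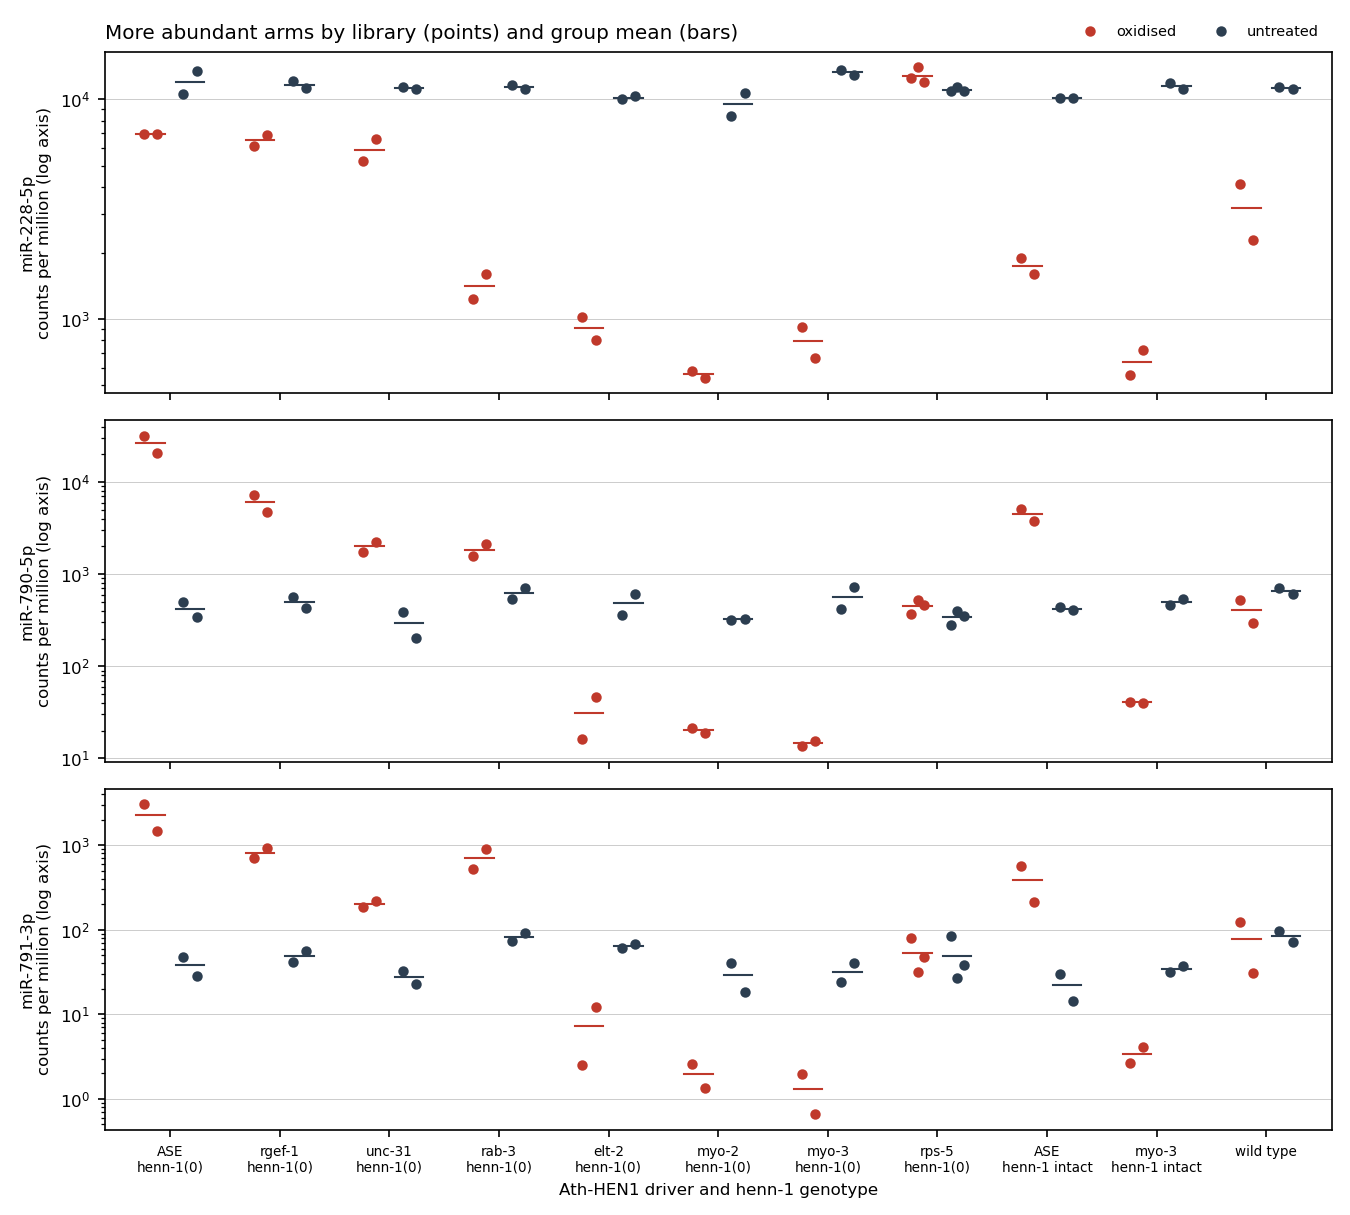
CPM (log axis) of miR-228-5p, miR-790-5p and miR-791-3p in each library (points) and the group mean (bars), oxidised left of untreated for each driver. Untreated miR-228-5p stays between 8427 and 13646 CPM, while oxidised miR-790-5p spans 13.6 to 31699 CPM, highest in ASE henn-1(0) and lowest in myo-3 henn-1(0) worms.

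The mir-790 and mir-791 arms had their largest rises with the ASE driver in henn-1(0) worms. In oxidised henn-1(0) ASE worms miR-790-5p had 31699 CPM in line 5 and 20913 CPM in line 9, against 495 and 339 CPM untreated. miR-791-3p had 3050 and 1467 CPM in the oxidised lines, against 48.1 and 28.5 CPM untreated. Both arms were far above their untreated levels in both lines, and miR-790-5p was rank 10 and 12 of 473 arms in the oxidised libraries, against ranks 71 and 81 in the untreated ones. The change was 5.37 ± 0.48 for miR-790-5p (edgeR adjusted p = 1.92e-11) and 5.29 ± 0.72 for miR-791-3p (edgeR adjusted p = 2.54e-07). Their partner arms went the same way. miR-790-3p had 1099 and 1735 CPM oxidised, against 3.17 and 6.70 CPM untreated, a change of 7.48 ± 1.07 (edgeR adjusted p = 1.9e-06) and the highest of the 395 arms. miR-791-5p had 3447 and 3855 CPM oxidised, against 28.1 and 27.2 CPM untreated, a change of 6.40 ± 0.61 (edgeR adjusted p = 6.69e-11) and rank 4.

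miR-228-5p did not share this. It had 6939 and 6923 CPM in the oxidised ASE henn-1(0) libraries, against 10583 and 13449 CPM untreated, a change of -1.44 ± 0.24 (edgeR adjusted p = 8.77e-06). Its partner miR-228-3p had 44.5 and 82.4 CPM oxidised, against 12.8 and 31.3 CPM untreated, and 0.84 ± 0.54 did not pass (edgeR adjusted p = 0.241). It passed with total counts (1.52), with an untreated TMM reference (1.41) and in a fit of this genotype alone (1.43). In this genotype 4 members rose and 1 fell, where 17.5% of the 395 arms rose and 20% fell. With RLE factors 78 arms rose and 43 fell, in place of 69 and 79. Relative to the median arm the changes were 5.96 for miR-790-5p, 5.87 for miR-791-3p and -0.86 for miR-228-5p.

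The pan-neuronal drivers split the family in the same direction. With rgef-1, miR-790-5p had 7327 and 4730 CPM in oxidised lines 3A and 14C, against 561 and 432 CPM untreated, and miR-791-3p had 699 and 935 CPM oxidised, against 41.8 and 56.1 CPM untreated. These were changes of 3.45 ± 0.44 and 3.84 ± 0.67 (edgeR adjusted p = 1.82e-08 and 5.83e-06). With unc-31, miR-790-5p had 1743 and 2256 CPM in oxidised lines 1 and 5, against 385 and 202 CPM untreated, and miR-791-3p had 187 and 220 CPM oxidised, against 32.9 and 22.8 CPM untreated. Oxidised and untreated libraries did not overlap for either arm. Here and below, the share of all arms without such an overlap was not computed. The unc-31 changes were 1.89 ± 0.41 and 2.03 ± 0.62 (edgeR adjusted p = 0.000151 and 0.00454).

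With rab-3, miR-790-5p had 1589 and 2110 CPM in oxidised lines 14 and 18.4, against 543 and 702 CPM untreated, and miR-791-3p had 521 and 901 CPM oxidised, against 73.6 and 90.8 CPM untreated. The changes were 1.10 ± 0.40 and 2.63 ± 0.63 (edgeR adjusted p = 0.0147 and 0.00042). The miR-790-5p change was thus the smallest of the family's called rises with this driver. The partner arms rose in all 3 pan-neuronal genotypes, miR-790-3p by 3.99 to 5.38 and miR-791-5p by 3.38 to 4.58. miR-790-3p was rank 5 or 6 of 395 arms by its change in each of them.

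miR-228-5p fell with every pan-neuronal driver, but to different levels. It had 6111 and 6895 CPM in oxidised rgef-1 lines and 5218 and 6583 CPM in oxidised unc-31 lines, against 11170 to 12162 CPM in their untreated libraries. In rab-3 lines it had 1228 and 1596 CPM oxidised, against 11642 and 11199 CPM untreated. The changes were -1.05 ± 0.24, -1.76 ± 0.24 and -3.48 ± 0.26 for rgef-1, unc-31 and rab-3 (edgeR adjusted p = 0.000208, 1.35e-07 and 7.08e-14). The oxidised rab-3 libraries were thus low in miR-228-5p while holding miR-790-5p at the level of the unc-31 lines. miR-228-3p did not pass in any of the 3, at 0.43 ± 0.54, -1.09 ± 0.55 and 0.64 ± 0.53 (edgeR adjusted p = 0.477, 0.0789 and 0.275).

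In each pan-neuronal genotype 4 members rose and 1 fell. The background was 39.5% higher and 32.9% lower arms for rgef-1, 31.4% higher and 36.7% lower for unc-31, and 36.2% higher and 36.7% lower for rab-3. With total counts the split was 158 higher and 120 lower for rgef-1 (156 and 130 with TMM), 155 and 111 for unc-31 (124 and 145) and 167 and 130 for rab-3 (143 and 145). Relative to the median arm, miR-790-5p changed by 3.34, 2.32 and 1.14 and miR-228-5p by -1.16, -1.34 and -3.44 for rgef-1, unc-31 and rab-3.

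**Figure D2:**
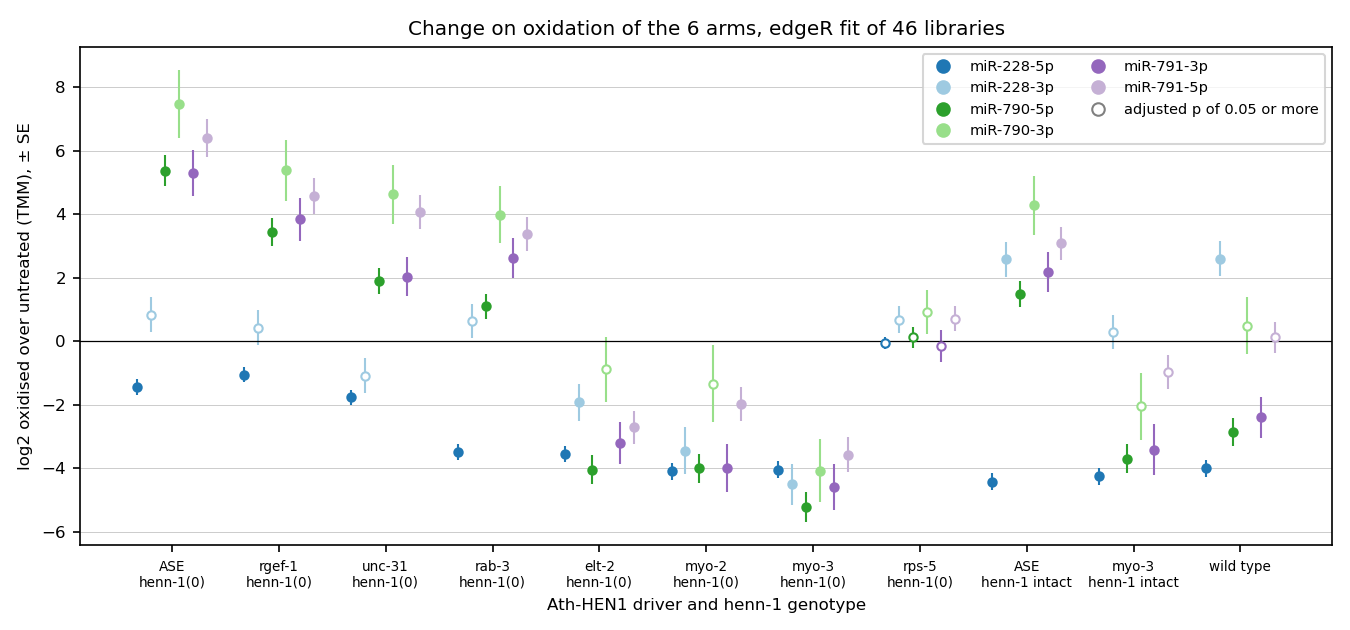
Log2 oxidised over untreated (TMM, edgeR fit of 46 libraries) of the 6 arms in each genotype, with bars of ± SE and open symbols where the adjusted p is 0.05 or more. The miR-790 and miR-791 arms lie above 0 with every neuronal driver and the called ones lie below 0 with elt-2, myo-2 and myo-3, while miR-228-5p lies below 0 in every genotype, though not with total counts in rps-5 (0.21).

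The intestinal and muscle drivers gave low levels of the whole family. miR-228-5p had 1023 and 801 CPM in oxidised elt-2 lines 3A and 8.1, against 10032 and 10350 CPM untreated. It had 579 and 540 CPM in oxidised myo-2 lines 7 and 30, against 8427 and 10708 CPM untreated. In myo-3 henn-1(0) lines 2.2 and 11.16 it had 923 and 661 CPM oxidised, against 13646 and 12924 CPM untreated. No oxidised library came near an untreated one. The falls were -3.55 ± 0.26, -4.09 ± 0.27 and -4.04 ± 0.27 for elt-2, myo-2 and myo-3 (edgeR adjusted p = 3.71e-14, 2.47e-15 and 2.42e-15).

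miR-790-5p had 16.4 and 46.4 CPM in oxidised elt-2 lines, 21.4 and 18.9 CPM in myo-2 lines and 13.6 and 15.6 CPM in myo-3 lines. Their untreated libraries held 322.068 to 724 CPM, so that all 6 oxidised libraries were below all 6 untreated ones. The changes were -4.04 ± 0.45, -4.00 ± 0.46 and -5.22 ± 0.48 (edgeR adjusted p = 7.54e-10, 1.14e-09 and 7.88e-12).

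miR-791-3p was nearly gone, with 2.52 and 12.2 CPM in oxidised elt-2, 2.58 and 1.33 CPM in myo-2 and 1.99 and 0.653 CPM in myo-3 libraries, against 18.4 to 67.3 CPM untreated. The changes were -3.21 ± 0.66, -3.99 ± 0.76 and -4.59 ± 0.73 (edgeR adjusted p = 6.4e-05, 2.6e-05 and 1.25e-06). Oxidised elt-2 line 3A had less miR-790-5p and miR-791-3p than line 8.1, and more miR-228-5p. With an untreated TMM reference the elt-2 change was -2.32 and called, and without the oxidised library of line 3A, a fit that takes that reference as well, it was -1.54 and not called.

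In these genotypes 0 members rose, and 5, 5 and 6 fell with elt-2, myo-2 and myo-3. The member not called with elt-2 and myo-2 was miR-790-3p, the rarest arm before oxidation, with changes of -0.88 ± 1.02 and -1.33 ± 1.2 (edgeR adjusted p = 0.436 and 0.325). Of all arms 46.8%, 46.3% and 50.9% fell and 28.1%, 20.5% and 18.7% rose. With RLE factors 135 rose and 154 fell for elt-2 (111 and 185 with TMM), 113 and 111 for myo-2 (81 and 183) and 126 and 118 for myo-3 (74 and 201). The calls of miR-228-3p with elt-2 and of miR-791-5p with myo-2 did not hold there, at -1.09 and -0.75. In fits that leave out 1 library, miR-228-3p with elt-2 lost its call in all 4 (-1.54 to -0.62) and miR-791-5p with myo-2 in 3 of 4 (-1.0 to -0.10). miR-791-5p with elt-2 lost it without the oxidised library of line 3A (-0.92). miR-228-3p with myo-2 lost it without the untreated (-1.67) or the oxidised library (-2.11) of line 30, and miR-790-3p with myo-3 without the oxidised library of line 11.16 (-2.36). Relative to the median arm, miR-228-5p changed by -2.12, -2.48 and -2.33, miR-790-5p by -2.62, -2.40 and -3.50, and miR-791-3p by -1.78, -2.38 and -2.87.

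With the broad rps-5 driver the 3 more abundant arms kept their untreated order. miR-228-5p had 12477, 13986 and 11989 CPM in oxidised libraries, against 10872, 11431 and 10904 CPM untreated. miR-790-5p had 370, 527 and 461 CPM oxidised, against 280, 401 and 350 CPM untreated, and miR-791-3p had 79.7, 31.6 and 48.0 CPM oxidised, against 83.6, 27.2 and 37.8 CPM untreated. miR-228-5p was slightly higher in every oxidised library than in any untreated one, while miR-790-5p and miR-791-3p overlapped. edgeR called 0 of the 6 members, 0 had an unadjusted p below 0.05 and DESeq2 called 0. Of the 395 arms 34.9% rose and 22.5% fell, 243 had an unadjusted p below 0.05 and DESeq2 called 202. With RLE factors the split over all arms was 94 higher and 97 lower in place of 138 and 89. The changes were -0.06 ± 0.19, 0.13 ± 0.33 and -0.15 ± 0.49 for miR-228-5p, miR-790-5p and miR-791-3p (edgeR adjusted p = 0.835, 0.769 and 0.834), and each turned sign with another scaling. Relative to the median arm they were -0.56, -0.38 and -0.65. The partner arms miR-228-3p, miR-790-3p and miR-791-5p changed by 0.68 ± 0.43, 0.92 ± 0.69 and 0.71 ± 0.40 (edgeR adjusted p = 0.179, 0.258 and 0.128). With total counts miR-228-3p (1.02) and miR-791-5p (1.01) were called, and miR-790-3p was called at 2.09 without the untreated library of line 22.3. In a fit of rps-5 alone miR-228-5p was called at -0.45.

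Set against rps-5, the change of each driver was tested directly. These comparisons share the rps-5 libraries, in which the known arms of different tissues did not move alike. The pan-neuronal mean change minus the rps-5 change was 2.02 ± 0.40 for miR-790-5p, 2.98 ± 0.62 for miR-791-3p and -2.04 ± 0.24 for miR-228-5p (edgeR adjusted p = 6.66e-05, 0.000104 and 9.35e-09). It called 5 members, against 57.2% of all arms. For ASE henn-1(0) the differences were 5.24 ± 0.55, 5.44 ± 0.83 and -1.38 ± 0.31 (edgeR adjusted p = 1.38e-09, 2.44e-06 and 0.000457), with 5 members called against 35.2% of arms. The miR-228-5p difference for ASE was not called with RLE factors (-0.68), an untreated TMM reference (-0.55) or no filter on low counts (-0.74), nor in the 4 fits without 1 ASE library (-0.77 to -0.42). For elt-2, myo-2 and myo-3 all members were lower than for rps-5, and 5, 5 and 6 were called, against 54.2%, 48.9% and 60% of arms. The exception in elt-2 and myo-2 was again miR-790-3p, at -1.80 ± 1.23 and -2.26 ± 1.38 (edgeR adjusted p = 0.222 and 0.185). The miR-228-5p and miR-790-5p differences of these 3 drivers kept their calls under every alternative, and other arms did not. With RLE factors the miR-228-3p difference for elt-2 (-1.56) and the miR-791-5p difference for myo-2 (-1.22) were not called. The miR-791-3p difference for elt-2 was not called with an untreated TMM reference (-1.86), in a fit of the compared genotypes (-2.13) or in 3 of the 4 fits without 1 elt-2 library (-2.03 to -1.08). That for myo-2 was not called in 3 of the 4 fits without 1 myo-2 library (-2.71 to -1.69). The miR-228-3p difference for myo-2 was lost without the untreated (-2.12) or oxidised library (-2.56) of line 30. The miR-791-5p difference for elt-2 was lost without the oxidised library of line 3A (-1.36), and the miR-790-3p difference for myo-3 without that of line 11.16 (-3.11). Without the untreated rps-5 library of line 22.3, miR-790-3p was called for elt-2 (-2.97) and myo-2 (-3.43).

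In the direct contrast between cell classes the class means differed for all 6 arms. The mean change of the 3 pan-neuronal genotypes minus that of elt-2, myo-2 and myo-3 henn-1(0) was 6.57 ± 0.36 for miR-790-5p, 6.76 ± 0.56 for miR-791-3p and 1.79 ± 0.19 for miR-228-5p (edgeR adjusted p = 1.35e-18, 5.05e-13 and 3.38e-10). It was 6.76 ± 0.79 for miR-790-3p, 6.75 ± 0.44 for miR-791-5p and 3.29 ± 0.49 for miR-228-3p (edgeR adjusted p = 2.15e-08, 3.35e-16 and 3.5e-07). So 6 of 6 members were called, against 48.4% of all arms. The arms of mir-790 and mir-791 differed by more than the mir-228 arms did. For miR-228-5p the difference was 1.03 relative to the median arm, and 0.47 to 2.28 as fitted over 4 scalings. Its pan-neuronal mean also covers unlike drivers. The rab-3 change of -3.48 was close to the -3.55 of elt-2. Relative to the median arm rab-3 was at -3.44, below elt-2 (-2.12), myo-2 (-2.48) and myo-3 (-2.33).

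Within neurons, ASE henn-1(0) minus the pan-neuronal mean was 3.23 ± 0.48 for miR-790-5p, 2.82 ± 0.97 for miR-790-3p, 2.46 ± 0.71 for miR-791-3p and 2.40 ± 0.57 for miR-791-5p (edgeR adjusted p = 1.97e-06, 0.0274, 0.00674 and 0.00109). These 4 members were called, against 30.9% of arms. Without the oxidised library of ASE line 5 the miR-791-3p difference was 1.78, and without the untreated one of line 9 it was 2.00, and neither was called. The miR-790-3p difference lost its call in 5 of 16 such fits (2.40 to 3.49), those without the untreated ASE library of either line, the oxidised ASE library of line 9, the untreated rab-3 library of line 14 or the untreated unc-31 library of line 5. The miR-228-5p difference of 0.66 ± 0.27 did not pass (edgeR adjusted p = 0.0652), but it was 1.21 and called with RLE factors and with DESeq2, and 0.81 and called with total counts. miR-228-3p differed by 0.84 ± 0.62 (edgeR adjusted p = 0.325).

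Ratios between members within a library need no scaling between libraries. In untreated worms miR-228-5p had 15.9 to 55.4 times the counts of miR-790-5p (median 25.8) and 119 to 716 times those of miR-791-3p (median 291). In oxidised ASE henn-1(0) libraries the order turned over, with 4.57 and 3.02 counts of miR-790-5p per count of miR-228-5p. The ratio was 1.29 and 1.32 in rab-3, 1.2 and 0.686 in rgef-1 and 0.334 and 0.343 in unc-31 oxidised libraries. It was 0.0297, 0.0377 and 0.0384 with rps-5, within the untreated range. With henn-1 intact it was 2.69 and 2.36 in oxidised ASE libraries, and in wild type, without the enzyme, 0.127 and 0.128 oxidised, against 0.0615 and 0.0544 untreated. miR-790-5p thus outnumbered miR-228-5p in both oxidised libraries of ASE henn-1(0), henn-1-intact ASE and rab-3 and in 1 of rgef-1.

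By line, the log2 ratio of miR-790-5p to miR-228-5p changed by 3.31 to 6.91 in the 8 neuronal henn-1(0) lines (mean 4.89 ± 1.24, SD) and by -1.25 to 0.22 in the 6 intestine and muscle lines (mean -0.55 ± 0.67, SD). The difference of 5.44 had an exact two-sided permutation p of 0.000666, the smallest that 8 against 6 lines allow, and the same after Benjamini-Hochberg adjustment over 2 tests. The ratio of miR-791-3p to miR-228-5p changed by 3.64 to 6.64 in the neuronal lines (mean 5.36 ± 1.16, SD) and by -1.55 to 1.23 in the others (mean -0.11 ± 1.10, SD), a difference of 5.47 with the same exact permutation p. Every neuronal line lay above every intestine or muscle line. The test takes lines as its units, and they come 2 to a driver. Its p therefore does not measure the spread between drivers of a cell class. The rps-5 lines stayed near 0 in both ratios, from -0.07 to 0.23. rab-3, whose libraries kept much intestinal miR-60-3p, changed by 4.79 and 4.40 in the first ratio, and the part of other cells in that level was not tested.

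**Figure D3:**
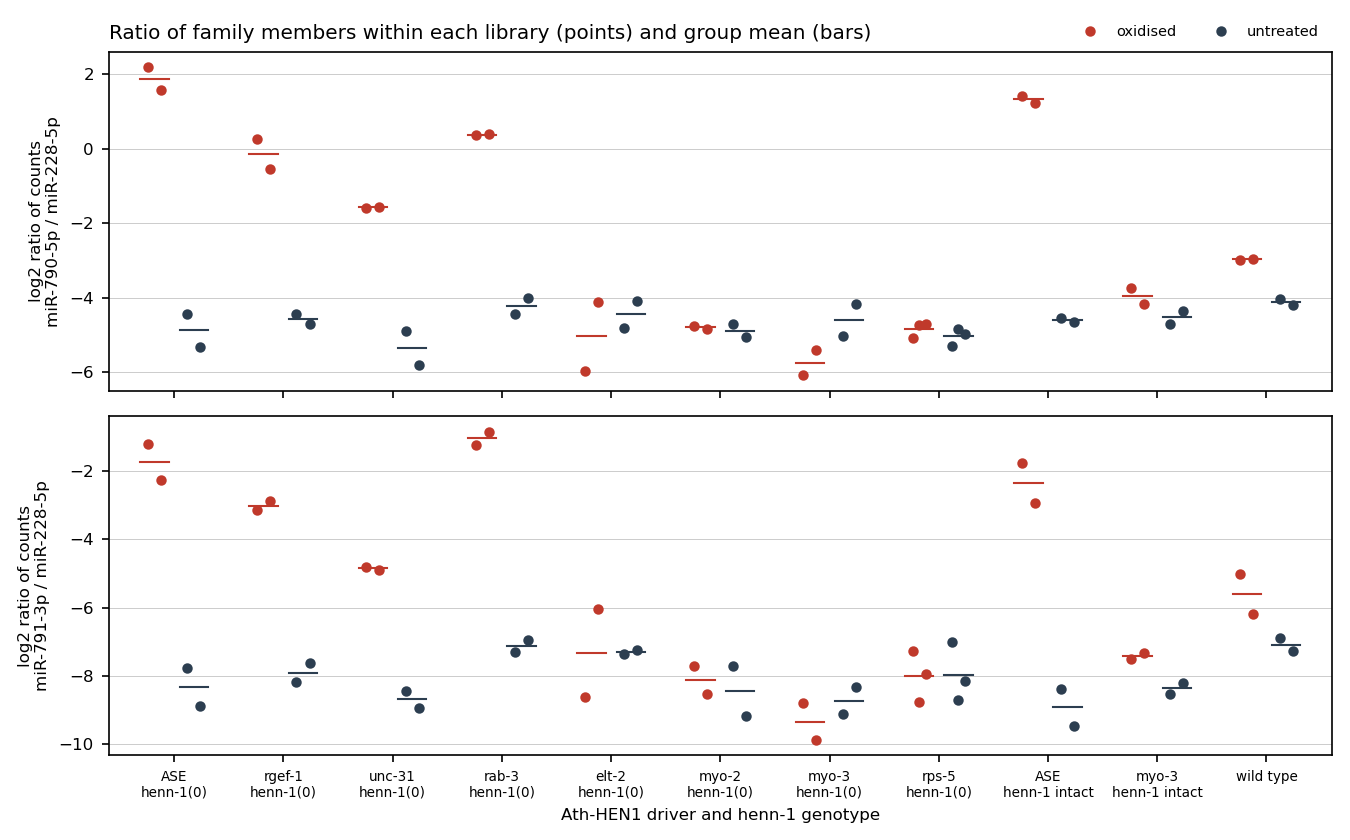
Log2 ratio of the counts of miR-790-5p (upper panel) and miR-791-3p (lower panel) to those of miR-228-5p in each library (points), with group means (bars), oxidised left of untreated. The neuronal drivers stand apart from their untreated libraries, at 4.57 and 3.02 counts of miR-790-5p per count of miR-228-5p in oxidised ASE henn-1(0) worms.

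With the worm's own HENN-1 present, oxidised libraries looked different in miR-228. In wild type worms, which carry no Ath-HEN1, miR-228-5p had 4099 and 2288 CPM oxidised, against 11416 and 11106 CPM untreated, whereas miR-228-3p had 268 and 309 CPM oxidised, against 13.6 and 8.65 CPM untreated. miR-228-3p was thus 26.0-fold higher in mean CPM, and high in both oxidised libraries, of which 1 was the shallowest of the series at 425711 counts. The fitted changes were -4.00 ± 0.27 and 2.60 ± 0.56 (edgeR adjusted p = 6.08e-15 and 9.51e-05), or -1.80 and 4.80 relative to the median arm, which fell by 2.20. By its change miR-228-3p was rank 68 of 395 arms in wild type. In henn-1-intact ASE worms miR-228-3p had 182 and 115 CPM oxidised, against 8.61 and 4.62 CPM untreated, a change of 2.58 ± 0.56 (edgeR adjusted p = 0.000107). In henn-1-intact myo-3 worms it had 52.7 and 65.8 CPM oxidised, against 35.7 and 55.2 CPM untreated, and 0.30 ± 0.54 did not pass (edgeR adjusted p = 0.627), though it lay 1.29 above the median arm.

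The other arms of wild type worms moved less clearly. miR-790-5p had 521 and 294 CPM oxidised, against 702 and 604 CPM untreated, and miR-791-3p had 124 and 30.7 CPM oxidised, against 95.8 and 71.4 CPM untreated. Their fitted changes of -2.86 ± 0.43 and -2.39 ± 0.65 were called (edgeR adjusted p = 2.95e-07 and 0.00149), but with RLE factors they were -0.49 and -0.03 and with an untreated TMM reference -0.77 and -0.25, and not called. Relative to the median arm they were -0.66 and -0.19. The partner arms miR-790-3p and miR-791-5p changed by 0.49 ± 0.90 and 0.13 ± 0.49 (edgeR adjusted p = 0.635 and 0.816). Both were called higher with RLE factors (2.96 and 2.49), total counts (2.66 and 2.31) and an untreated TMM reference (2.61 and 2.22). They also were with no filter (2.54 and 2.12), in a fit of wild type alone (2.20 and 1.84) and with DESeq2 (2.97 and 2.49). In the TMM fit of all libraries 1 member rose and 3 fell in wild type, against 20.8% of arms higher and 48.9% lower. The other scalings changed this tally. With RLE factors 138 arms rose and 83 fell, in place of 82 and 193.

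In henn-1-intact ASE worms the mir-790 and mir-791 arms rose too. miR-790-5p had 5119 and 3777 CPM oxidised, against 439 and 404 CPM untreated, a change of 1.5 ± 0.41 (edgeR adjusted p = 0.00139). miR-791-3p had 563 and 211 CPM oxidised, against 30.1 and 14.2 CPM untreated, a change of 2.17 ± 0.63 (edgeR adjusted p = 0.00259). Both stood above the median arm, by 3.33 and 4.00. miR-228-5p had 1900 and 1600 CPM oxidised, against 10119 and 10170 CPM untreated, a change of -4.42 ± 0.27 (edgeR adjusted p = 7.41e-16). Here 5 members rose and 1 fell, against 23.5% and 48.4% of arms. With RLE factors 158 arms rose and 88 fell, in place of 93 and 191. In henn-1-intact myo-3 worms 0 rose and 3 fell, against 27.3% and 31.6%, and with RLE factors 128 arms rose and 103 fell in place of 108 and 125. There miR-228-5p had 557 and 721 CPM oxidised, against 11857 and 11153 CPM untreated, and miR-790-5p had 41.3 and 40.1 CPM oxidised, against 460 and 542 CPM untreated. Their changes were -4.25 ± 0.27 and -3.70 ± 0.46 (edgeR adjusted p = 5.11e-16 and 6.8e-09).

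Between henn-1 backgrounds, ASE henn-1(0) minus henn-1 intact was 3.87 ± 0.58 for miR-790-5p, 2.98 ± 0.34 for miR-228-5p and -1.74 ± 0.76 for miR-228-3p (edgeR adjusted p = 8.33e-07, 5.56e-09 and 0.0488). All 6 members were called, against 58% of arms, and 3 with DESeq2, which called 152 of 395 arms. The median arm differed by 2.05. Relative to it miR-790-5p differed by 1.82, miR-228-5p by 0.93 and miR-228-3p by -3.80. As fitted over 4 scalings these 3 ran from 1.92 to 3.87, 1.06 to 2.98 and -3.65 to -1.74. The miR-791-3p difference of 3.12 ± 0.87 (edgeR adjusted p = 0.00237) was 1.13 with RLE factors and not called, and every fit that left out a library of these genotypes lost it. The same held for miR-790-3p and miR-791-5p, at 1.27 and 1.39 with RLE factors. In a fit of the 2 genotypes alone the miR-228-5p difference was 0.34 and not called. For myo-3, 2 members were called, against 14.4% of arms. miR-228-3p differed by -4.80 ± 0.82 (edgeR adjusted p = 1.45e-05) and miR-791-5p by -2.61 ± 0.76 (edgeR adjusted p = 0.0106), which was -1.68 and not called with RLE factors, nor in 7 of 8 fits without 1 library (-2.02 to -0.89). The miR-228-5p difference of 0.21 ± 0.34 was not called (edgeR adjusted p = 0.863), but it was called at 1.19 (RLE factors, DESeq2), 1.53 (untreated TMM reference), 1.65 (no filter) and 1.86 (the 2 genotypes alone). The miR-790-5p difference of -1.53 ± 0.58 (edgeR adjusted p = 0.082) was called with total counts (-1.67). miR-228-3p thus changed less on oxidation, or fell, in henn-1(0) worms compared with henn-1-intact worms of both drivers.

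Against the wild type change, which all these comparisons share, the ASE henn-1(0), rgef-1, unc-31 and rab-3 genotypes had 5, 5, 5 and 4 members higher and 1 lower each. The background, here and below for either direction, was 53.2%, 56.5%, 55.9% and 57% of arms called. Split by direction it was 39.2%, 42.8%, 39.7% and 38.5% higher and 13.9%, 13.7%, 16.2% and 18.5% lower. For rps-5 it was 3 higher and 1 lower (59.2%), and for henn-1-intact ASE 3 higher and 0 lower (4.56%). For elt-2, myo-2, myo-3 henn-1(0) and henn-1-intact myo-3 0 were higher and 2, 2, 5 and 1 were lower, against 54.2%, 42.5%, 47.1% and 21% of arms. DESeq2 called all 6 members in each of these last 4, where it called 243, 204, 204 and 175 of the 395 arms. For ASE henn-1(0), rgef-1, unc-31 and rab-3 it called 6, 4, 4 and 4 members, and 149, 215, 200 and 216 arms. For rps-5 and henn-1-intact ASE it called 3 and 4 members, and 187 and 24 arms. The member counts thus depend on the tool and scaling. For miR-228-5p the difference from wild type was 2.95, 2.23, 2.56 and 3.94 for rgef-1, unc-31, ASE henn-1(0) and rps-5, all called. It was 0.51, 0.45, -0.09 and -0.05 for rab-3, elt-2, myo-2 and myo-3 henn-1(0), none called. Henn-1-intact ASE and myo-3 were at -0.42 and -0.26, not called. Over 4 scalings the rgef-1 value ran from 0.28 to 2.95 and the rab-3 value from -2.02 to 0.51.

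The share of counts on each arm is also free of scaling. In the 6 oxidised henn-1-intact libraries 88.09% to 93.87% of miR-228 counts were on the 5p arm. In the 17 oxidised henn-1(0) libraries it was 97.85% to 99.88%, and in the 23 untreated libraries 99.51% to 99.95%, so the henn-1-intact oxidised libraries did not overlap either set. miR-790 lay mostly on its 5p arm as well, at 74.06% to 99.53% in oxidised and 94.9% to 99.84% in untreated libraries. Its lowest values were 74.1% in a rab-3 library, 85.3% in an unc-31 library and 86.7% in the other rab-3 library. miR-791 had no such dominant arm. Its 3p arm held 13.64% to 72.73% of counts in oxidised libraries (median 37.5%), against 35.46% to 81.88% in untreated ones (median 63.17%). The group mean was lower in oxidised than in untreated worms in all 11 genotypes.

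**Figure D4:**
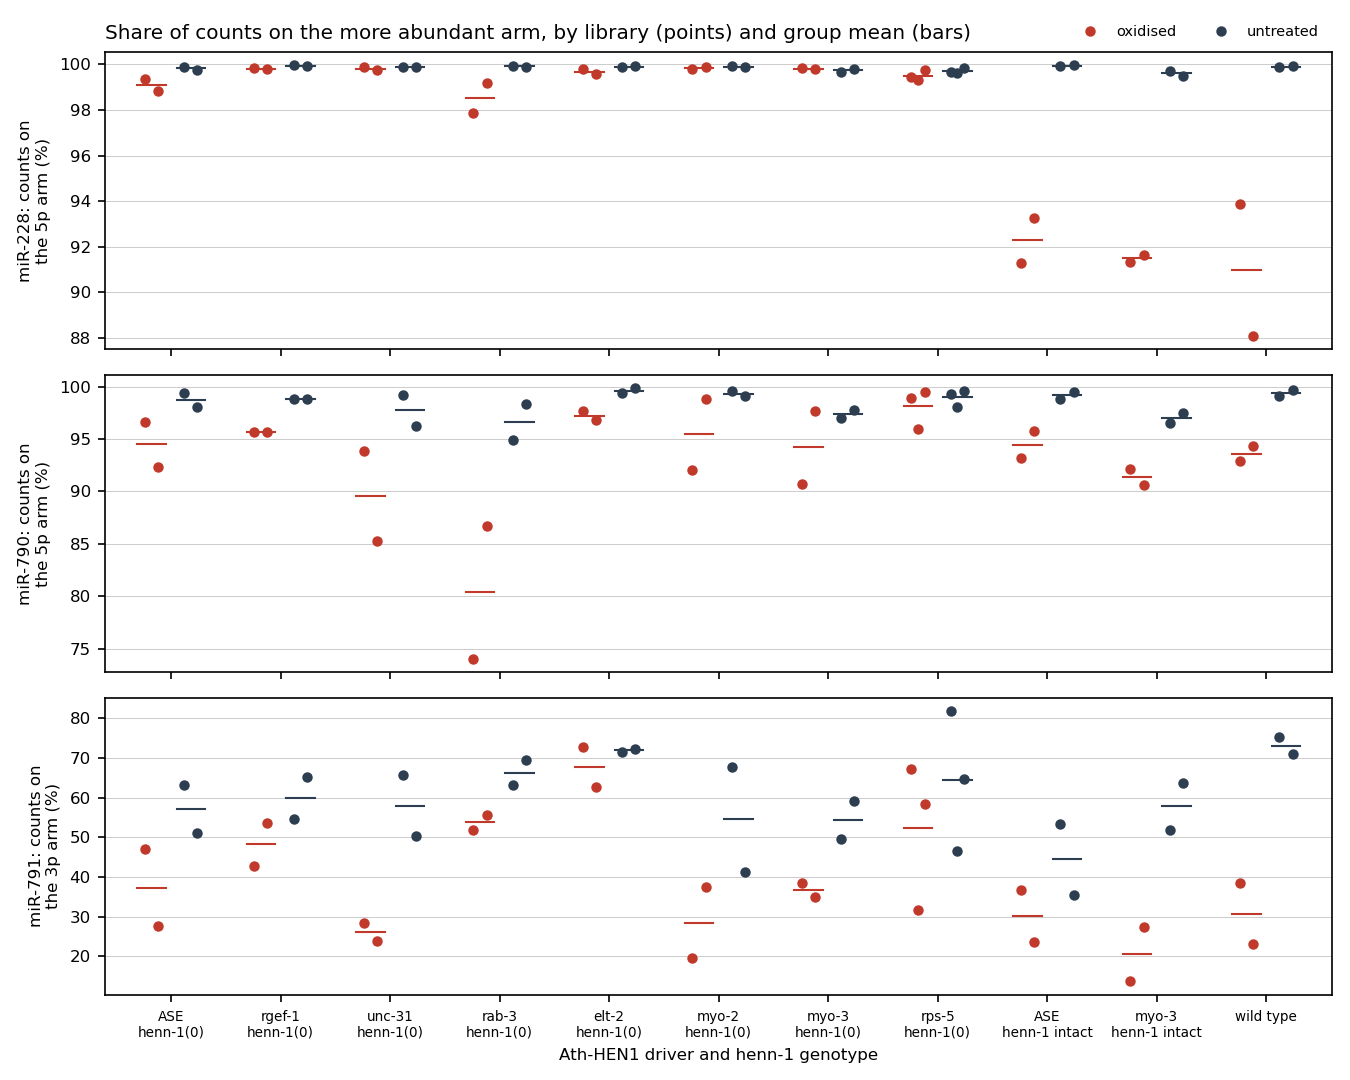
Percent of each hairpin's counts on its 5p arm (miR-228, miR-790) or 3p arm (miR-791) in each library (points) with group means (bars), oxidised left of untreated; the axes do not start at 0. For miR-228 the 6 oxidised henn-1-intact libraries lie at 88.09% to 93.87%, below all others.

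**Figure D5:**
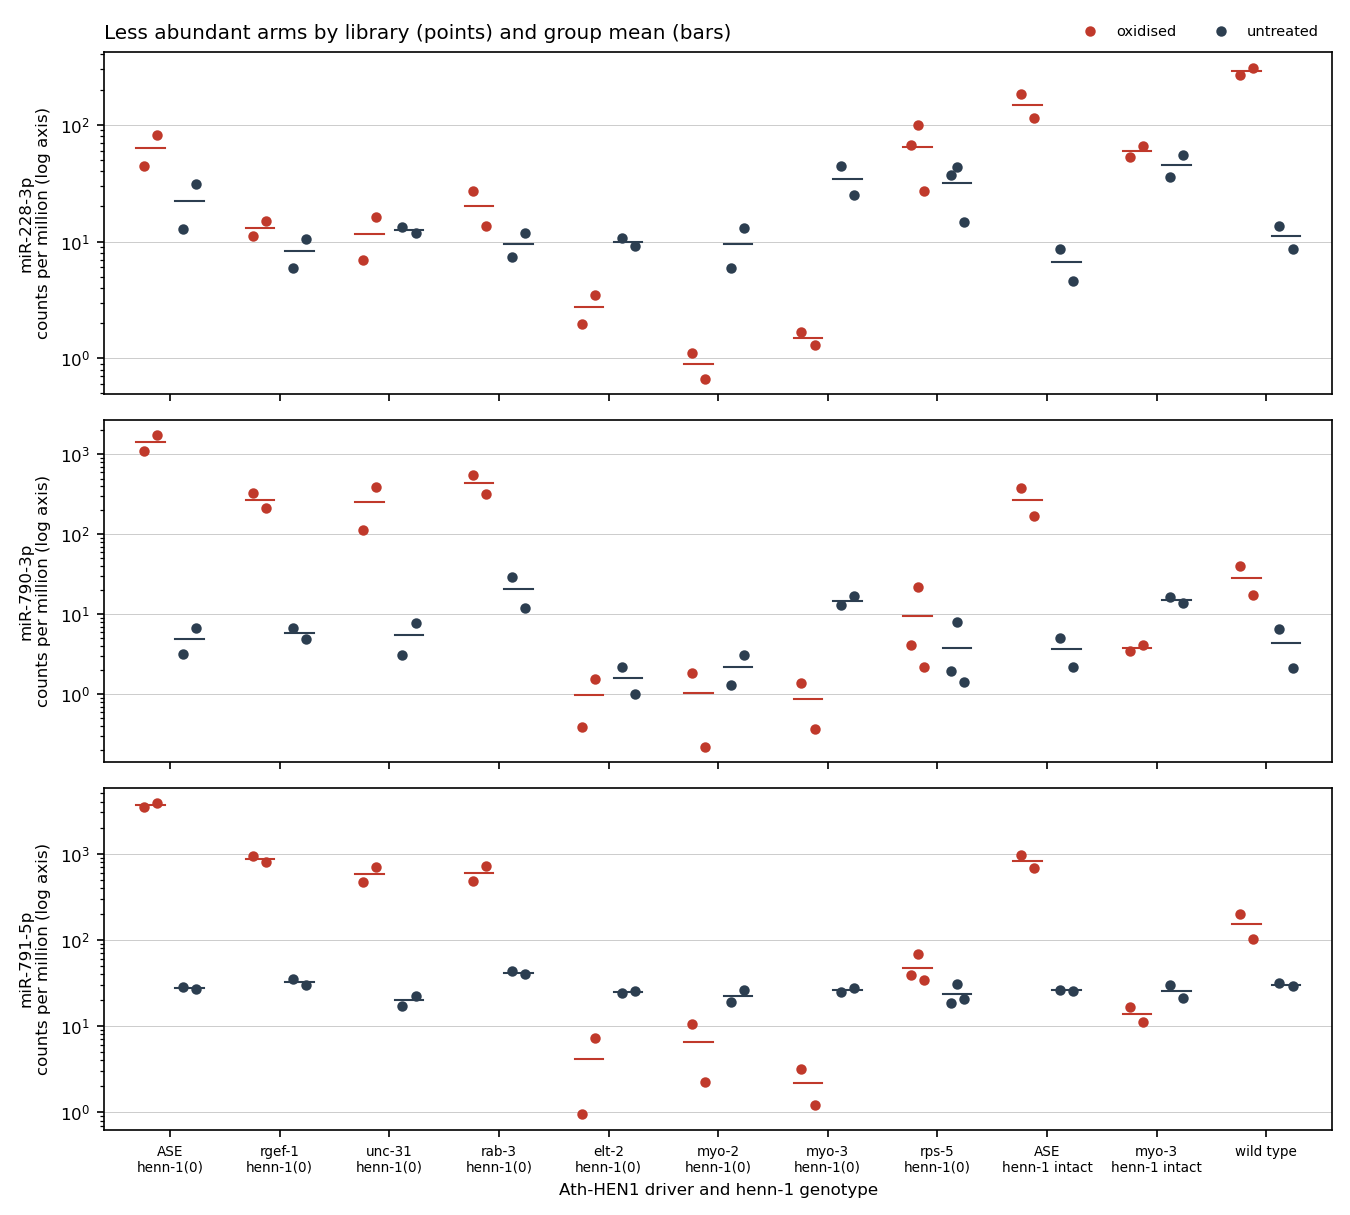
CPM (log axis) of miR-228-3p, miR-790-3p and miR-791-5p in each library (points) with group means (bars), oxidised left of untreated. miR-228-3p is highest in oxidised wild type worms at 268 and 309 CPM, whereas the other 2 arms peak in oxidised ASE henn-1(0) worms.

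In the order of oxidised group means, miR-228-5p ran from 12820 CPM in rps-5 through 6931 in ASE henn-1(0), 6503 in rgef-1, 5901 in unc-31, 3194 in wild type, 1750 in henn-1-intact ASE and 1412 CPM in rab-3 worms. The intestine and muscle genotypes came last, at 912, 792, 639 and 560 CPM for elt-2, myo-3 henn-1(0), henn-1-intact myo-3 and myo-2. Libraries of rgef-1 and unc-31 overlapped, as did neighbours among the last 4. miR-790-5p ran from 26310 CPM in ASE henn-1(0) through 6029 in rgef-1, 4448 in henn-1-intact ASE, 1999 in unc-31, 1849 in rab-3, 453 in rps-5 and 408 CPM in wild type worms. It ended at 40.7 CPM in henn-1-intact myo-3, 31.4 in elt-2, 20.1 in myo-2 and 14.6 CPM in myo-3 henn-1(0) worms. Overlapping neighbours were rgef-1 and henn-1-intact ASE, unc-31 and rab-3, rps-5 and wild type, and the run from henn-1-intact myo-3 to myo-2. The order of miR-791-3p also opened with ASE henn-1(0) (2259 CPM) and rgef-1 (817 CPM) and closed with myo-3 henn-1(0) (1.32 CPM).

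Over the 11 genotypes the changes of miR-790-5p and miR-791-3p followed each other closely (Pearson r = 0.99, Spearman rho = 0.94), whereas those of miR-228-5p followed them less (r = 0.64 and 0.58) and its own 3p arm hardly (r = 0.16). These correlations share libraries and scaling factors and are a description. Among 181 other arms, those most like miR-790-5p were miR-1821-3p (r = 0.98), lsy-6-3p (0.97), miR-254-3p (0.96), miR-84-5p (0.96) and miR-792-3p (0.95). The same 5 arms were the most like miR-791-3p, led by miR-1821-3p (r = 0.99) and lsy-6-3p (0.98). Those most like miR-228-5p were others: miR-230-3p (0.98), miR-42-3p (0.98), miR-45-3p (0.96), miR-44-3p (0.96) and miR-37-5p (0.94).

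Reference lists give the setting, and both were chosen with results of these data known. Of 8 neuronal arms, among them the pan-neuronal miR-124-3p, 5 rose and 3 fell in ASE henn-1(0), and 6 rose in each of rgef-1, unc-31 and rab-3 while 1, 1 and 0 fell. Their median change was 3.16, 2.46, 1.89 and 1.56, against -0.58, 0.11, -0.42 and -0.04 for all arms. Of the same 8 arms, 8, 7 and 8 fell with elt-2, myo-2 and myo-3 henn-1(0), with medians of -4.61, -4.79 and -5.25. The 2 epidermal and seam arms, miR-235-3p and miR-244-5p, both fell with rab-3, unc-31, elt-2, myo-2 and myo-3 henn-1(0), and 1 of them fell with rgef-1 and with ASE henn-1(0). In the other genotypes 4 neuronal arms rose and 4 fell in henn-1-intact ASE, 0 rose and 7 fell in henn-1-intact myo-3, 2 rose and 3 fell in rps-5, and 1 rose and 7 fell in wild type. Both epidermal and seam arms fell in henn-1-intact ASE, henn-1-intact myo-3 and wild type, and 1 fell in rps-5. miR-228-5p is also named as a glial and epidermal microRNA. The data carry no glial driver against which that name could be checked, and miR-228-5p was not called higher on oxidation in any of the 11 genotypes.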

How the data were processed

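Small RNAs (18 to 30 nucleotides) of whole L1 worms were sequenced. The values are expected counts per mature arm that the authors deposited, fractional (over 1e-06 from a whole number) for 20 to 51 arms of a library and whole for the 6 members. Per the submitters' processing notes, cutadapt 1.2.1, HTSeq 0.6.1p1 and WBcel235 were used; the sources used here name no aligner.

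Counts were rounded and fitted with edgeR 4.0.16 (limma 3.58.1, R 4.3.3; quasi-likelihood, robust, TMM) in 1 model of 22 groups over 46 libraries, after a filter at 10 counts kept 395 of 473 worm arms. Benjamini-Hochberg adjusted p below 0.05 was called. CPM used library totals without TMM factors. The fits were tested on simulated data. Ratio changes by line were compared with an exact permutation test (scipy 1.17.1, Python 3.11.15). DESeq2 1.42.0, RLE factors, total counts, no filter, a line block, fits of fewer genotypes and fits without each library were alternatives. An untreated TMM reference was added after seeing the data, since TMM takes an oxidised library as its reference here and an untreated one in 39 of 46 fits that leave 1 library out.

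The named arms were the 6 members, the 5 arms most alike by Pearson correlation (at least 10 CPM untreated), driver checks and 2 lists. Members and lists were chosen with earlier results of these data known. Oxidised and untreated libraries of a line are paired by strain per the labels, with correlations of their deviations from -0.002 to 0.774; wild type has no lines. No molecular identifiers were used here, so reads are not independent molecules.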

Additional observations from a re-analysis of the deposited data

Results flagged for a closer look

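Differences between genotypes in the log2 change on oxidation passed the edgeR test in 9 comparisons between transgenic genotypes and the exact permutation test for 2 ratios, and these values of the 6 arms are given here. The comparisons with wild type are given above as counts of members. No explanation was weighed. Groups of 2 or 3 libraries were too small for a search for single outlying libraries.

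Between the pan-neuronal mean and the intestine and muscle mean, all 6 arms differed, by 1.79 for miR-228-5p, 3.29 for miR-228-3p, 6.57 for miR-790-5p, 6.76 for miR-790-3p, 6.76 for miR-791-3p and 6.75 for miR-791-5p. The pan-neuronal mean differed from rps-5 by -2.04 for miR-228-5p, 2.02 for miR-790-5p, 3.74 for miR-790-3p, 2.98 for miR-791-3p and 3.30 for miR-791-5p. ASE henn-1(0) differed from rps-5 by -1.38 for miR-228-5p, 5.24 for miR-790-5p, 6.56 for miR-790-3p, 5.44 for miR-791-3p and 5.70 for miR-791-5p. ASE henn-1(0) differed from the pan-neuronal mean by 3.23 for miR-790-5p, 2.82 for miR-790-3p, 2.46 for miR-791-3p and 2.40 for miR-791-5p.

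elt-2 differed from rps-5 by -3.49 for miR-228-5p, -2.60 for miR-228-3p, -4.17 for miR-790-5p, -3.06 for miR-791-3p and -3.41 for miR-791-5p. myo-2 differed from rps-5 by -4.03 for miR-228-5p, -4.13 for miR-228-3p, -4.13 for miR-790-5p, -3.84 for miR-791-3p and -2.68 for miR-791-5p. myo-3 henn-1(0) differed from rps-5 by -3.99 for miR-228-5p, -5.18 for miR-228-3p, -5.35 for miR-790-5p, -5.0 for miR-790-3p, -4.45 for miR-791-3p and -4.27 for miR-791-5p.

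ASE henn-1(0) differed from henn-1-intact ASE by 2.98 for miR-228-5p, -1.74 for miR-228-3p, 3.87 for miR-790-5p, 3.21 for miR-790-3p, 3.12 for miR-791-3p and 3.32 for miR-791-5p. Their median arm differed by 2.05, and the TMM factors of the oxidised henn-1-intact ASE libraries, like those of wild type, were above those of the other oxidised libraries. myo-3 henn-1(0) differed from henn-1-intact myo-3 by -4.80 for miR-228-3p and -2.61 for miR-791-5p. In the ratios, neuronal lines differed from intestine and muscle lines by 5.47 for miR-791-3p over miR-228-5p and by 5.44 for miR-790-5p over miR-228-5p.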

How the results depend on the processing

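In fits leaving out 1 library each, 342 of 364 results for the more abundant arms and ratios kept their direction and side of the threshold. Both ratio differences kept theirs with 0.1 or 1 added to each count and with counts not rounded. The scaling and fit alternatives do not apply to ratios. Since the lines separated fully, leaving out a library could not undo that. Where an alternative changed a result the cause was not tested.

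The wild type change of miR-790-5p was -0.49 (RLE), -0.68 (total counts), -0.77 (untreated TMM reference), -0.86 (no filter) and -0.49 (DESeq2), and -1.18 to -0.46 without 1 library. That of miR-791-3p was -0.03, -0.15, -0.25, -0.39, -0.02 and, in a fit of wild type alone, -0.69, and -1.47 to 0.45 without 1 library. None of these alternatives was called. The wild type changes of miR-790-3p and miR-791-5p were called higher with RLE, total counts, an untreated reference, no filter, alone and DESeq2. They were 2.20 to 2.97 and 1.84 to 2.49 there. For rps-5, miR-790-5p turned to -0.11 (RLE, DESeq2), -0.18 (untreated reference), -0.06 (no filter) and -0.26 (alone), miR-228-5p to 0.21 (total counts) and to a called -0.45 (alone), and miR-791-3p to 0.10 (total counts) and -0.59 to 0.52 without 1 library. ASE henn-1(0) minus pan-neuronal was called for miR-228-5p at 1.21 (RLE, DESeq2) and 0.81 (total counts), with 0.46 to 0.81 without 1 library and a call at 0.76 without oxidised rab-3 line 18.4. For miR-791-3p it was 1.78 to 2.75. ASE henn-1(0) minus henn-1 intact lost its call for miR-791-3p at 1.13 (RLE, DESeq2), 1.76 (total counts), 1.60 (untreated reference) and 0.42 (alone), 0.88 to 2.13 without 1 library, and for miR-228-5p at 0.34 (alone). The elt-2 change of miR-791-3p was -3.90 to -1.54 without 1 library.

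Uncalled values turned sign for miR-228-3p in pan-neuronal minus rps-5 (0.02, untreated reference; -1.02 to 0.22 without 1 library), ASE henn-1(0) minus rps-5 (-0.18 to 1.71), unc-31 (-0.73 to 0.34) and henn-1-intact myo-3 (-0.11, no filter). They did for miR-790-3p in elt-2 (0.04, no filter; 0.09, DESeq2; -1.22 to 0.83), elt-2 minus rps-5 (-2.97 to 0.08), myo-2 (-2.01 to 0.72) and rps-5 (-0.45 to 2.09). In myo-3 henn-1(0) minus henn-1 intact, miR-790-5p turned to 0.09 (alone; -1.43 to 0.26) and miR-791-3p to 0.13 (untreated reference), 0.26 (no filter) and 0.46 (alone; -1.09 to 0.59).

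Members called against wild type were 2 for rps-5 with total counts or no filter (4 in the TMM fit; 2 to 4 without 1 library). For elt-2 there were 5 (RLE), 6 (total counts, DESeq2), 4 (no filter) and 1 (alone), with 3 to 5 without 1 library, in place of 2. For myo-2 there were 5 (RLE, untreated reference, no filter) and 6 (total counts, alone, DESeq2), with 3 to 5, in place of 2. For henn-1-intact myo-3 there were 6 under each scaling, no filter, alone and DESeq2, 2 with the line block, and 1 to 6, in place of 1. Untreated ASE had 1 (alone) in place of 0. DESeq2 called 187, 243, 204 and 175 of 395 arms in rps-5, elt-2, myo-2 and henn-1-intact myo-3 minus wild type.

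With the line as a replicate block, miR-790-3p in henn-1-intact myo-3 (-2.03) and miR-790-5p in myo-3 henn-1(0) minus intact (-1.50) gained a call, and the block changed no other call of the 120 fitted. No paired analysis was possible for the untreated comparisons because lines differ between genotypes.

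Arms called of 395 moved by over 1.5 times in rps-5 (134 alone, 227 in the TMM fit), ASE henn-1(0) minus intact (108 alone, 229), myo-3 henn-1(0) minus intact (179 alone, 57), henn-1-intact myo-3 minus wild type (197 alone, 83), ASE henn-1(0) minus wild type (129 without a filter, 210), henn-1-intact ASE minus wild type (30 alone, 18), untreated rps-5 minus wild type (23 with DESeq2, 1) and untreated ASE (27 alone, 1). Without 1 library the lowest counts were 172 in wild type (275), 97 in ASE henn-1(0) (148), 91 in ASE henn-1(0) minus rps-5 (139), 121 in myo-2 minus rps-5 (193) and 145 in rps-5 minus wild type (234). Depth limits the rarest arms most, since miR-790-3p had 1 count in a myo-2 library.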
